A study of Mus musculus with 32 samples.

Results

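Podocytes are the epithelial cells that wrap the capillaries of the glomerulus, the filter at the head of each nephron. Their interlocking foot processes are joined by the slit diaphragm, a junction built around nephrin. They divide little, so that their number and their differentiated gene programme set how well the filter holds back protein. The 6 genes described here are used as podocyte markers: Nphs1 and Ptpro of the foot process membrane, the surface sialomucin Podxl, the actin-binding Synpo, the transcription factor Wt1 and the cell cycle inhibitor Cdkn1c. They were taken as a fixed list of 6 among 20657 named genes of the array, through the transcript accession of each probe, with the brightest probe standing for a gene. All 6 were among the 23737 genes and transcripts tested.

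RNA of whole homogenised kidney was hybridised to 32 Agilent whole mouse genome arrays in 1 colour, each array taking 1 male mouse of 12 to 16 weeks. Wild type C57BL/6 mice came from Charles River, and the miR-155-/- line, B6.Cg-Mir155tm1.1Rsky/J, was first bought from The Jackson Laboratory, so that supplier and genotype cannot be told apart. Each genotype had 4 mice given saline (called 0 h in the labels) and 4 mice at each of 24, 48 and 72 h after a single 20 mg/kg dose of cisplatin, a platinum drug that damages DNA. The saline mice of both genotypes received no cisplatin, and the miR-155-/- mice lack the microRNA in every cell type, not in podocytes alone.

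The microRNA missing from the knockout is shown because the genotype comparison turns on it. Its main mature strand, from RefSeq on GRCm38.p6 at chr16:84714143-84714165 on the plus strand, is printed 5′ to 3′ with the seed (bases 2 to 8) in capitals.
mmu-miR-155-5p: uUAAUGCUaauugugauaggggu

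Promoters from 250 bases before to 50 bases after the start were given in RefSeq for 2 of the 6 genes, Nphs1 and Ptpro. They are shown because both genes encode foot process membrane proteins and their signals moved together between animals of a group while their changes after cisplatin differed. Nphs1 lies on the plus strand at chr7:30459808-30460107 and Ptpro on the plus strand at chr6:137252049-137252348, both on GRCm38.p6. Capitals mark every match, on either strand, to GNGNGGGNG, a G-rich element of the kind described for the Wt1 and Egr zinc fingers, and to CANNTG, the E-box of basic helix-loop-helix factors.
Nphs1: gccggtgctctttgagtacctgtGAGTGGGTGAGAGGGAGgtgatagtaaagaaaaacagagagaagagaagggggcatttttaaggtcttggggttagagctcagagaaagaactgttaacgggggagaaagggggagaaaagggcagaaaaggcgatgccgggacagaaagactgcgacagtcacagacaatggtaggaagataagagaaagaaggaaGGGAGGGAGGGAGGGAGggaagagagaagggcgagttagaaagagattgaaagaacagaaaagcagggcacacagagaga
Ptpro: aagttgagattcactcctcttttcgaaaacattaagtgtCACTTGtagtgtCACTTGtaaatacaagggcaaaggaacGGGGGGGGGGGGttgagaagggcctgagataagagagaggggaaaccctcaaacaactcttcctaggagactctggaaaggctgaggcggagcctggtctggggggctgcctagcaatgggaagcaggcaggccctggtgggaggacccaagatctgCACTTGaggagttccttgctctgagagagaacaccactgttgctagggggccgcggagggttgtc
The Nphs1 window held 5 overlapping or neighbouring matches to GNGNGGGNG and the Ptpro window 4 overlapping ones within a run of G. At least 1 such match was held by 39.6% of all 32851 promoter windows. Ptpro held 3 matches to CANNTG and Nphs1 held 0, against 72.3% of all windows with at least 1. Neither window held TAATTA (5.29% of all windows) or TATAAA (13.6%). These are matches of letters, not binding sites.

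All values below are log2 processed signals minus the 75th percentile of the array, a percentile that lay between 1531 and 2647 in intensity units. A value of 0 therefore means a signal equal to that percentile. Nphs1, Podxl, Synpo, Wt1 and Ptpro were well above background on 32 of 32 arrays, and Cdkn1c on 31, its value on miR-155-/- saline replicate 3 having been dropped for an outlier flag. In such whole-kidney RNA fewer cells of a type and less RNA per cell cannot be told apart. Further, 2 arrays stood apart from their groups over all genes, miR-155-/- replicate 3 at 24 h and miR-155-/- replicate 3 at 48 h. The 8 slides were scanned on 2 days, with 1 saline array of each genotype on the first day and 3 on the second. In wild type the first-day saline array was replicate 1, on which all 6 markers lay below their group means. Over all genes, deviations from group means had a median r of 0.246 between arrays of the same slide and -0.0311 between slides. The main fit did not model slide, and no slide held both wild type saline and wild type 72 h arrays. Markers of the tubule, the bulk of the kidney, were present at high level. Of 4 adipocyte genes Lep was well above background on 0 arrays and 3 were tested, with a mean level between -7.81 and -2.49 on the saline arrays and between -5.54 and -0.87 after cisplatin. It was highest on wild type 48 h replicate 1 (-0.87) and wild type 24 h replicate 4 (-1.34). Of these 3 genes Cidec, which liver and other tissues can also express, was higher at each time and the others were not called. Of 4 adrenal cortex genes 2 were tested and 0 called, with a mean level between -7.67 and -4.86 in saline and between -7.42 and -5.98 after cisplatin. The part of these tissues in the results was not tested.

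Nphs1, which encodes the slit diaphragm protein nephrin, rose after cisplatin in both genotypes. In wild type kidney the 4 saline arrays read -1.24, -0.76, -0.69 and -0.58, and the 24 h arrays -1.12, -0.40, -0.35 and -0.33. The 48 h arrays read -0.69, -0.39, -0.23 and -0.08, and those of 72 h -0.52, -0.36, -0.15 and 0.09. The wild type 72 h arrays all lay above the saline arrays, whereas the 24 h and 48 h groups overlapped with saline. In miR-155-/- kidney the saline arrays read -0.84, -0.77, -0.65 and -0.45, and the 24 h arrays -0.65, -0.59, -0.39 and -0.13. The 48 h arrays read -0.50, -0.42, -0.31 and -0.15, and the 72 h arrays -0.43, -0.29, 0.00 and 0.11. Here too the 72 h group did not overlap with saline, and the earlier groups did. Over all features, the 72 h group did not overlap with saline for 40.1% in wild type and 40% in miR-155-/-.

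Averaged over both genotypes, Nphs1 stood 1.19-fold above saline at 24 h (log2 0.25 ± 0.13, limma adjusted p = 0.0910), a difference that did not pass the test. It rose 1.32-fold at 48 h (0.40 ± 0.13, limma adjusted p = 0.00976), with 8 of 8 treated arrays above the saline mean of their genotype. At 72 h it rose 1.47-fold (0.56 ± 0.13, 95% interval 0.30 to 0.82, limma adjusted p = 0.000682), again on 8 of 8 arrays. Standard errors follow the ± sign of log2 differences and pool the spread of all 8 groups of 4 arrays. The group means were ordered by time in each genotype, from -0.82 ± 0.29 (SD, n = 4) in wild type saline to -0.15 ± 0.25 (SD, n = 4) in miR-155-/- at 72 h, and each step between neighbouring groups in that order was smaller than their SD.

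Within a genotype the rise of Nphs1 at 72 h was 0.58 ± 0.18 in wild type (limma adjusted p = 0.0166) and 0.53 ± 0.18 in miR-155-/- (0.0220). With 4 arrays against 4 these calls were open to single animals. The wild type call was lost without saline replicate 1 (0.44, adjusted p = 0.0878) or 72 h replicate 4 (0.48, 0.0778). The miR-155-/- call was lost without saline replicate 1 (0.47, adjusted p = 0.0657), saline replicate 3 (0.50, 0.0531), 72 h replicate 2 (0.44, 0.0826) or 72 h replicate 3 (0.48, 0.0661). The rise averaged over both genotypes was called at 72 h in all 30 alternatives run, between 0.49 and 0.60, with adjusted p from 6.56e-05 to 0.00727. Some of these could hardly change it: the authors' value table, the filter settings and, with 1 probe for Nphs1, the mean of all probes. Within the first scan day the rise was 0.79 and within the second 0.62, and with scan day as a block 0.58. At 48 h the within-day values were 0.71 and 0.29, and the call was lost with slide as a fixed block (0.34, adjusted p = 0.0553). The first-day values rest on 1 saline array of each genotype, in wild type the replicate 1 on which all 6 markers were low. In miR-155-/- it was replicate 1, on which 5 of 6 markers lay below their group means. The second-day value at 72 h rests in wild type on 1 array of that time (0.76). That array was replicate 4, which read 0.09 and without which the wild type call was lost.

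**Figure D1:**
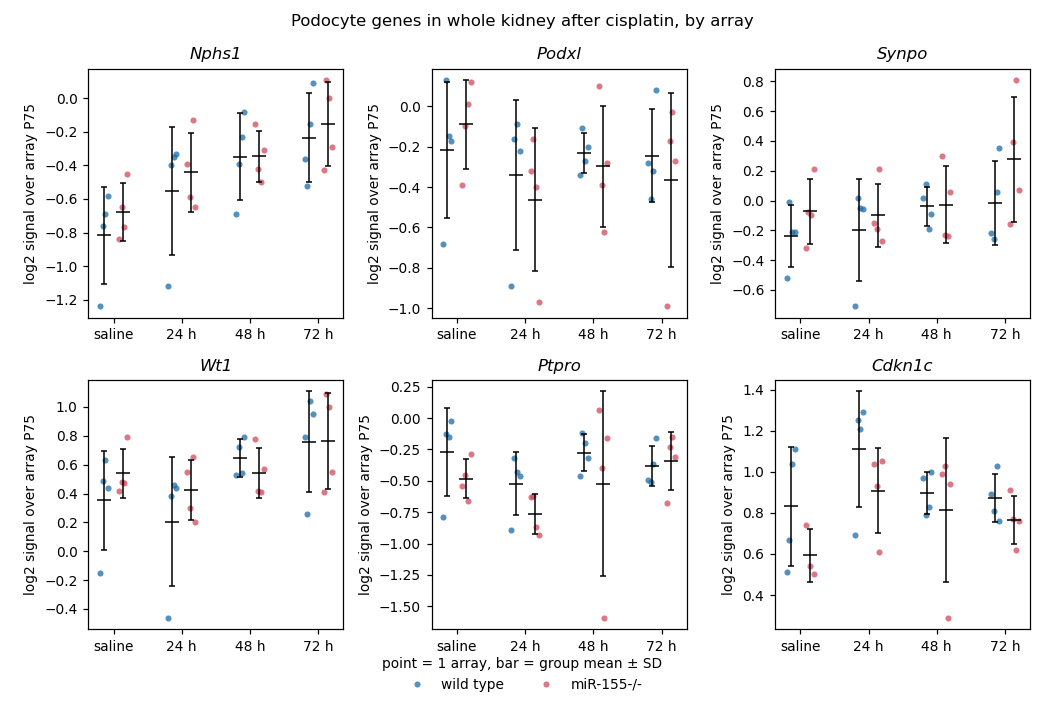
Log2 signal over the 75th percentile of the array (vertical axis) of the 6 podocyte markers in the 8 groups (saline and 24, 48 and 72 h after cisplatin; blue wild type, red miR-155-/-), with 1 point per array and bars for the group mean ± SD (n = 4; n = 3 for Cdkn1c in miR-155-/- saline). Nphs1 climbed from means of -0.82 and -0.68 in saline to -0.23 and -0.15 at 72 h.

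Ptpro, a receptor tyrosine phosphatase of the foot process membrane also known as GLEPP1, did not pass the test at any time. Its arrays lay between -0.79 and -0.02 in wild type saline and between -0.66 and -0.29 in miR-155-/- saline. At 24 h its levels were -0.89, -0.46, -0.43 and -0.32 in wild type and -0.93, -0.87, -0.63 and -0.62 in miR-155-/-, which is the lowest group mean of the 8 at -0.76 ± 0.16 (SD, n = 4). The difference from saline averaged over genotypes was -0.27 ± 0.16 at 24 h (95% interval -0.59 to 0.06), -0.02 ± 0.16 at 48 h and 0.02 ± 0.16 at 72 h. Within the scan days the 24 h value was 0.07 and -0.53, the second resting on 1 wild type 24 h array, the replicate on which all 6 markers were low. The first rests on 1 wild type saline array, replicate 1, on which all 6 were low as well. On the miR-155-/- 48 h replicate 3 array, which stood apart over all genes, Ptpro read -1.59, against -0.40 to 0.06 on the other 3 arrays of its group.

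Podxl, a sialomucin whose negative charge keeps foot processes apart and which vascular endothelium also carries, was lower than saline on average at each time without passing the test. In wild type it lay between -0.68 and 0.13 in saline, between -0.89 and -0.09 at 24 h, between -0.34 and -0.11 at 48 h and between -0.46 and 0.08 at 72 h. In miR-155-/- it lay between -0.39 and 0.12 in saline, between -0.97 and -0.16 at 24 h, between -0.62 and 0.10 at 48 h and between -0.99 and -0.03 at 72 h. Every treated group overlapped with its saline group. The differences averaged over genotypes were -0.25 ± 0.15, -0.11 ± 0.15 and -0.15 ± 0.15 at 24, 48 and 72 h, and the widest of the 95% intervals reached -0.55. Within the first scan day they were 0.14, 0.33 and 0.07 and within the second -0.56, -0.29 and -0.01. By genotype the sign differed between days in wild type at 24 h (0.53 and -0.82, the second from replicate 1 alone) and in both genotypes at 48 h (0.41 and -0.13, and in miR-155-/- 0.24 and -0.46). It was the same on both days in miR-155-/- at 24 h (-0.25 and -0.29) and 72 h (-0.19 and -0.16) and in wild type at 72 h (0.33 and 0.14). Each first-day value rests on 1 saline array per genotype, in wild type the replicate 1 on which all 6 markers were low. Of its CD34 family relatives, Podxl2 (endoglycan) fell by 0.87 ± 0.15 at 24 h and 0.58 ± 0.15 at 72 h (limma adjusted p = 0.00187 at 72 h), and Cd34, of endothelium and blood progenitors, stood at -0.09 ± 0.18 and -0.07 ± 0.18.

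Synpo, or synaptopodin, binds actin and alpha-actinin in the foot process and is also found in dendrites. Its signal lay between -0.52 and -0.01 in wild type saline and between -0.26 and 0.35 in wild type at 72 h. In miR-155-/- it lay between -0.32 and 0.21 in saline and read -0.16, 0.07, 0.39 and 0.81 at 72 h, where replicates 2 and 3 exceeded every saline array. The difference averaged over genotypes was 0.01 ± 0.13 at 24 h, 0.12 ± 0.13 at 48 h and 0.29 ± 0.13 at 72 h (limma adjusted p = 0.0808). At 72 h 3 of 4 wild type and 3 of 4 miR-155-/- arrays lay above the saline mean of their genotype. It would have passed without miR-155-/- 72 h replicate 1 (0.36, limma adjusted p = 0.0290). A second, dimmer Synpo probe gave -0.17, -0.26 and -0.01 at the 3 times and was not called either, so that the direction of the brighter probe was not shared.

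Wt1, the zinc finger transcription factor that maintains podocyte identity in the adult, first stood slightly below saline and then above it. In wild type the saline arrays read -0.15, 0.44, 0.49 and 0.63, the 24 h arrays -0.46, 0.38, 0.44 and 0.46, and the 72 h arrays 0.26, 0.79, 0.95 and 1.04. In miR-155-/- the saline arrays read 0.42, 0.47, 0.48 and 0.79, the 24 h arrays 0.20, 0.30, 0.55 and 0.65, and the 72 h arrays 0.41, 0.55, 1.0 and 1.09. At 48 h the groups lay between 0.53 and 0.79 and between 0.41 and 0.78. The 24 h groups reached lower than saline and the 72 h groups higher, and all overlapped with saline.

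Against saline the differences of Wt1 averaged over genotypes were -0.13 ± 0.14 at 24 h, 0.15 ± 0.14 at 48 h and 0.32 ± 0.14 at 72 h (limma adjusted p = 0.0663), none of which passed. The last would have passed without wild type saline replicate 3 (0.36, limma adjusted p = 0.0448), wild type 72 h replicate 2 (0.40, 0.0188), miR-155-/- saline replicate 4 (0.36, 0.0471) or miR-155-/- 72 h replicate 1 (0.37, 0.0353). From 24 to 72 h Wt1 rose 1.36-fold (0.45 ± 0.14, limma adjusted p = 0.0105), on 7 of 8 arrays, and it was called in that comparison in all 31 alternatives, between 0.34 and 0.58. Here too the authors' value table, the filter settings and, with 1 probe for Wt1, the mean of all probes could hardly change it. Within the first scan day the rise from 24 to 72 h was 0.27 in wild type and 0.38 in miR-155-/-, and within the second 1.41 and 0.30. The wild type value of 1.41 sets 1 array at 72 h against 1 at 24 h, the replicate 1 on which all 6 markers were low. Averaged over genotypes, the rise of Wt1 from 24 to 72 h was 0.48 without the 2 arrays that stood apart.

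Cdkn1c encodes p57, a cyclin-dependent kinase inhibitor that podocytes keep as they leave the cell cycle. In wild type its saline arrays read 0.51, 0.67, 1.04 and 1.11 and its 24 h arrays 0.69, 1.21, 1.25 and 1.29. In miR-155-/- the 3 measured saline arrays read 0.50, 0.54 and 0.74 and the 24 h arrays 0.61, 0.93, 1.04 and 1.05. Of the wild type 24 h arrays 3 lay above every saline array, as did 3 in miR-155-/-, while the fourth array of each group lay among the saline values. At 48 h the groups lay between 0.79 and 1.0 and between 0.29 and 1.03, and at 72 h between 0.76 and 1.03 and between 0.62 and 0.91.

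Averaged over genotypes Cdkn1c rose 1.23-fold at 24 h (0.30 ± 0.11, limma adjusted p = 0.0269), and stood at 0.14 ± 0.11 at 48 h and 0.11 ± 0.11 at 72 h. At 24 h 3 of 4 wild type and 4 of 4 miR-155-/- arrays lay above the saline mean of their genotype. The 24 h call did not hold widely. It was lost under normexp (0.28, adjusted p = 0.0972), quantile normalization (0.26, 0.0516) and with scan day (0.23, 0.0625) or slide (0.21, 0.0885) as a block. It was also lost without wild type saline replicate 1 (0.24, adjusted p = 0.0710) or 2 (0.27, 0.0546), wild type 24 h replicate 2 (0.27, 0.0533) or 4 (0.27, 0.0574), miR-155-/- saline replicate 2 (0.28, 0.0537) or 4 (0.27, 0.0621), or miR-155-/- 24 h replicate 4 (0.27, 0.0539). Within the scan days the difference was 0.31 and 0.25 in miR-155-/- and 0.74 and -0.24 in wild type, the last from the single array of 24 h replicate 1. The 0.74 rests on a single wild type saline array, replicate 1, on which all 6 markers were low. Of the other Cip/Kip inhibitors, Cdkn1a, the p53 target that encodes p21, rose 40.7-fold at 24 h (5.35 ± 0.20, limma adjusted p = 1.47e-17), and Cdkn1b, which encodes p27, stood at -0.04 ± 0.07 at 24 h and fell by 0.18 ± 0.07 at 72 h (0.0353).

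**Figure D2:**
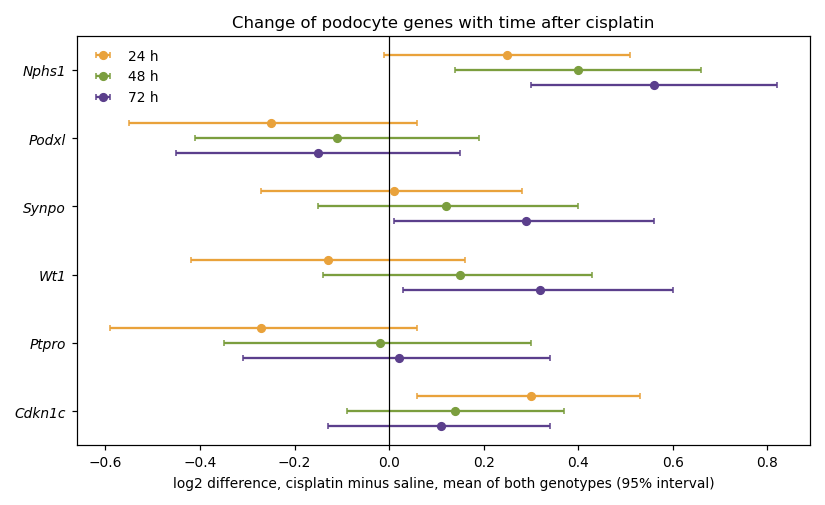
Log2 difference between cisplatin and saline averaged over both genotypes (horizontal axis) with its 95% interval, for the 6 markers at 24 h (orange), 48 h (green) and 72 h (purple). The interval of Nphs1 lay above 0 at 48 and 72 h (0.40 and 0.56), that of Cdkn1c at 24 h (0.30), and those of Synpo and Wt1 at 72 h (0.29 and 0.32; neither passed after adjustment).

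Counted over the list, 1 of the 6 markers was called against saline at 24 h (Cdkn1c), where limma called 57.8% of all features tested. At 48 h 1 of 6 was called (Nphs1), against 49.9% of all features, and at 72 h 1 of 6 (Nphs1), against 44.8%. Between 24 and 72 h 1 of 6 was called (Wt1), against 42.8%. Each of these calls was upward. Against saline, 0 of the 6 markers were called lower at 24, 48 and 72 h, beside 26.7%, 24.9% and 22.6% of all features. At an unadjusted p under 0.05, in either direction, the numbers were 1, 1 and 3 of 6 against saline and 3 of 6 between 24 and 72 h, beside 14616, 13150, 12105 and 11627 of the 23737 features in limma. The median difference of the 6 was -0.06, 0.13 and 0.20 at 24, 48 and 72 h, beside medians of 0.04, -0.02 and 0.01 over all features. By genotype, 0 of 6 were called in wild type at 24 and 48 h (background 38.7% and 23.8%) and 1 at 72 h (25.3%). In miR-155-/- 0 were called at 24 and 48 h (49.1% and 43.8%) and 1 at 72 h (35.2%).

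No difference of the markers between miR-155-/- and wild type passed the test. Over 6 markers and 4 times the 24 differences lay between -0.25 and 0.30 on the log2 scale, with standard errors from 0.15 to 0.22, and the smallest limma adjusted p was 0.561. Of the 6 markers 0 were called, where limma called 0.114%, 0.08%, 0.101% and 0.72% of all features at 0, 24, 48 and 72 h. At an unadjusted p under 0.05 the number was also 0, beside 789, 2209, 3596 and 2578 of the 23737 features in limma. The 95% intervals reached from -0.71 to 0.68. The response to cisplatin differed between genotypes by -0.29 to 0.25 for the 6 markers at 3 times, with 95% intervals reaching from -0.86 to 0.90, and 0 of them were called, against 0%, 0% and 0.211% of all features. The smallest adjusted p was 0.712, and 0 reached an unadjusted p under 0.05, beside 784, 1701 and 1797 features. For Nphs1 the difference between the genotypes' responses at 72 h was -0.05 ± 0.25.

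Other genes of podocytes, taken from lists chosen with earlier results of these data known, did not follow the 6 markers as a body. The counts of these lists and of those below stand beside shares over all features of 57.8%, 49.9% and 44.8% called at 24, 48 and 72 h. The shares called lower were 26.7%, 24.9% and 22.6%. Of 12 tested genes of the slit diaphragm and podocyte membrane 3 were higher and 6 lower at 24 h, and 4 were higher and 4 lower at 72 h, with a median of -0.40 and then -0.22. Among those lower at 72 h were the phospholipase A2 receptor Pla2r1 (fell by 0.72), the guidance receptor Robo2 (fell by 0.50) and the calcium channel Trpc6 (fell by 0.74). Trpc6 was dim (mean of -6.37 in saline), and its difference at 48 h, -0.64, was 0.00 under normexp (limma adjusted p = 0.997). Those higher were the giant cadherin Fat1 (1.26 ± 0.16), the nephrin adaptor Cd2ap (0.64 ± 0.11), the junction protein Tjp1 (0.37 ± 0.07) and the nephrin relative Kirrel3 (0.71 ± 0.21). Fat1, Cd2ap and Tjp1 are also expressed by tubule epithelium.

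Of 13 genes of the podocyte cytoskeleton and its adhesion 7 were higher and 3 lower at 24 h, and 6 were higher and 3 lower at 72 h. Dendrin (Ddn), a partner of nephrin, rose by 0.74 ± 0.22 at 24 h and 0.92 ± 0.22 at 72 h. Averaged over genotypes, the formin Inf2 rose by 1.08 ± 0.17 at 72 h and the integrin chain Itga3 by 0.93 ± 0.15. From saline to 72 h the group mean of Inf2 went from 0.15 to 0.80 in wild type and from 0.03 to 1.54 in miR-155-/-. That of Itga3 went from -2.39 to -2.05 and from -2.50 to -0.97. Clic5, a chloride channel family protein of the foot process, fell by 0.60 ± 0.14 at 24 h and 0.56 ± 0.14 at 72 h, and the rho-binding Rhpn1 fell by 0.93 ± 0.08 at 72 h.

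Of 6 other podocyte transcription factors 3 were lower at 24 h and 2 at 72 h. Tcf21, a basic helix-loop-helix factor, fell by 1.18 ± 0.25 at 24 h and 1.24 ± 0.25 at 72 h, and Dach1 fell by 1.56 ± 0.18 and then 0.62 ± 0.18.

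Of 11 secreted and basement membrane genes 1 was higher and 7 lower at 24 h, 2 were higher and 6 lower at 48 h, and 2 were higher and 5 lower at 72 h. The chains of the glomerular basement membrane collagen fell most at 24 h: Col4a3 by 1.51 ± 0.23, Col4a4 by 1.73 ± 0.21 and Col4a5 by 1.67 ± 0.25. At 72 h they stood at -0.57, -0.82 and 0.07, and each rose between 24 and 72 h. Vegfa, which podocytes and tubule cells secrete for the capillaries, fell by 1.08, 1.02 and 1.0 at the 3 times. The laminin chain Lama5 rose at all 3 times (0.70, 0.74 and 0.94). The proteoglycan agrin (Agrn) stood at 0.29 at 24 h, which did not pass the test, and rose by 0.60 at 48 h and 0.79 at 72 h.

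Of 6 genes reported to rise in injured podocytes 4 were higher and 1 lower at each time. The urokinase receptor Plaur, which many injured cell types express, rose 7.39-fold at 24 h, 10.2-fold at 48 h and 7.74-fold at 72 h. Angptl4 rose by 1.63 ± 0.19 at 72 h, Ctsl and Uchl1 rose at each time, and desmin (Des) fell by 0.68 ± 0.17 at 72 h.

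**Figure D3:**
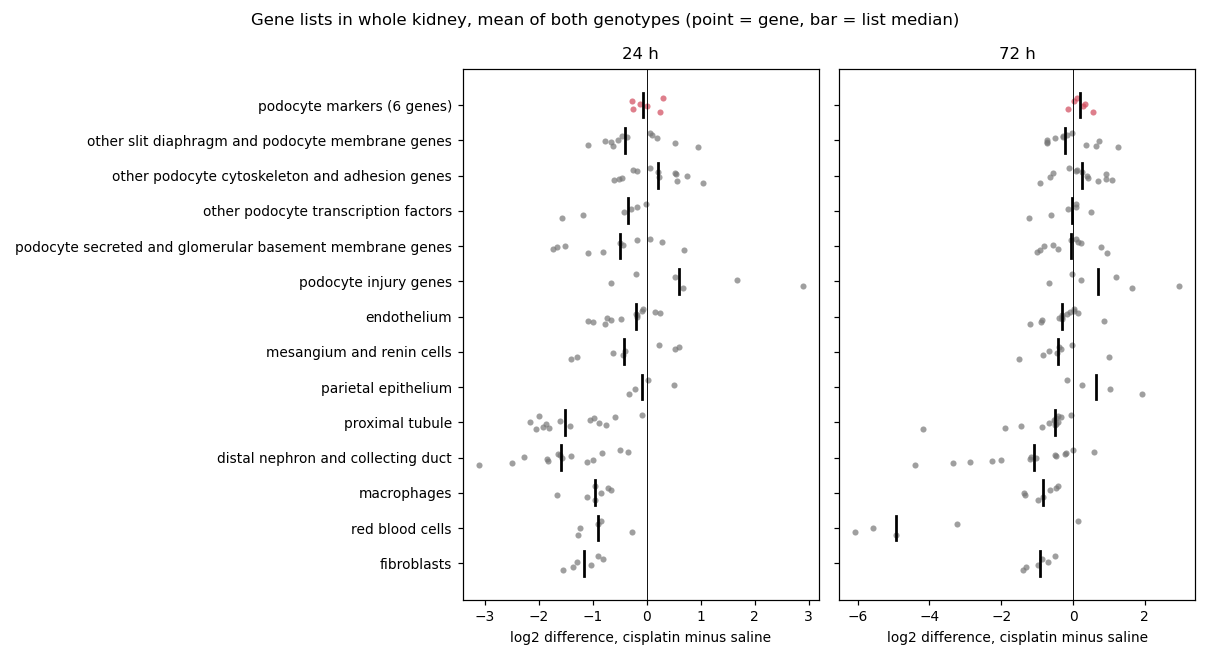
Log2 difference between cisplatin and saline averaged over both genotypes (horizontal axis; the 2 panels have their own scales) for each gene of 14 lists at 24 h and 72 h, with 1 point per gene and a bar at the list median. The 6 podocyte markers (red) lay between -0.27 and 0.56 at these times, while the medians of the tubule lists were -1.52 and -1.58 at 24 h.

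Markers of other kidney cells moved over a wider range in the same arrays. Of 14 proximal tubule genes 13 were lower at 24 h (median -1.52) and 11 at 72 h (median -0.49), and of 14 distal nephron and collecting duct genes 12 were lower at 24 h (median -1.58) and 9 at 72 h (-1.10). The mean level of the proximal tubule list lay between 4.89 and 5.23 on the saline arrays and between 3.67 and 4.51 at 72 h. That of the distal list went from 2.34 to 2.57 in saline to 0.50 to 1.48 at 72 h. Of 5 red blood cell genes 4 were lower at 72 h (median -4.94), with mean levels of -2.33 to -0.41 in saline and -6.04 to -3.31 at 72 h. Of 13 endothelial genes 4 were lower and 1 higher at 72 h (median -0.30), of 8 genes of mesangium and renin cells 2 and 1 (-0.42), and of 7 macrophage genes 5 were lower (-0.83). Over all features 44.8% were called at 72 h, 22.6% as lower. In either direction the endothelial and mesangial lists were called no more often than all features. Of 4 genes of the parietal epithelium that lines Bowman's capsule 2 were higher at 72 h averaged over genotypes, Cldn1 (1.92 ± 0.30) and Cd44 (1.03 ± 0.27). From saline to 72 h the group mean of Cd44 went from -3.31 to -3.09 in wild type and from -3.39 to -1.55 in miR-155-/-. That of Cldn1 went from -3.87 to -2.49 and from -4.11 to -1.63. Each value is relative to the 75th percentile of its array, and the part of these changes in other cells' transcripts in the rise of Nphs1 was not tested.

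Ratios within an array set the markers against each other, without the scaling of the array. These ratios were chosen after the values had been seen. Of the 15 pairs of markers, 9 changed between saline and 24 h, 6 by 48 h and 9 by 72 h, in a 2-sided exact permutation test over arrays within genotype, adjusted over 45 tests. The ratio of Nphs1 to Podxl rose by 0.50 at 24 h, 0.51 at 48 h and 0.71 at 72 h on the log2 scale. On each occasion it was higher on 8 of 8 treated arrays (exact permutation adjusted p = 0.00262; the smallest unadjusted p this design allows is 0.000408). At 72 h it rose by 0.61 in wild type and 0.80 in miR-155-/-, beside a pooled SD of 0.19 between arrays of a group. Within the scan days the 72 h value was 0.72 and 0.63. The first rests on 1 saline array of each genotype, and the second on 1 wild type 72 h array. Under the 20 alternatives run for 72 h it lay between 0.63 and 0.75 and passed in each. The array median was among them and cannot change a ratio within an array. Slide and scan day were not run as blocks for the ratios.

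Nphs1 also rose against other markers of the list. Against Ptpro it rose by 0.52, 0.42 and 0.54 at the 3 times, and was called in every alternative run. The 48 h value fell to 0.27 without miR-155-/- 48 h replicate 3 (exact permutation adjusted p = 0.0161), the array that stood apart and on which Ptpro read -1.59. Against Wt1, the marker whose signal followed it best between animals, it rose by 0.38, 0.26 and 0.24, with exact permutation adjusted p of 0.00262, 0.0105 and 0.0135. The 72 h value was 0.19 under normexp (exact permutation adjusted p = 0.0566). Against Synpo it rose by 0.25, 0.28 and 0.27, of which the 48 h value missed the threshold in 7 of 21 alternatives, with values down to 0.23 and adjusted p up to 0.0849 in the exact permutation test. Single arrays that lost this call were wild type saline replicates 1 and 2, wild type 48 h replicates 3 and 4 and miR-155-/- saline replicates 2 and 4. Against Cdkn1c the change of Nphs1 did not pass at 24 h (-0.06, exact permutation adjusted p = 0.779) or 48 h (0.25, 0.161). At 72 h Nphs1 rose against Cdkn1c by 0.43 (exact permutation adjusted p = 0.0276), a call kept in 16 of 20 alternatives. Podxl fell against Wt1 by 0.47 at 72 h and against Synpo by 0.44 (exact permutation adjusted p = 0.00551 and 0.00459), with 0 of 8 treated arrays above the saline mean in each. At 24 h Ptpro fell against Cdkn1c by 0.59, again with 0 of 8 arrays above (exact permutation adjusted p = 0.00262).

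**Figure D4:**
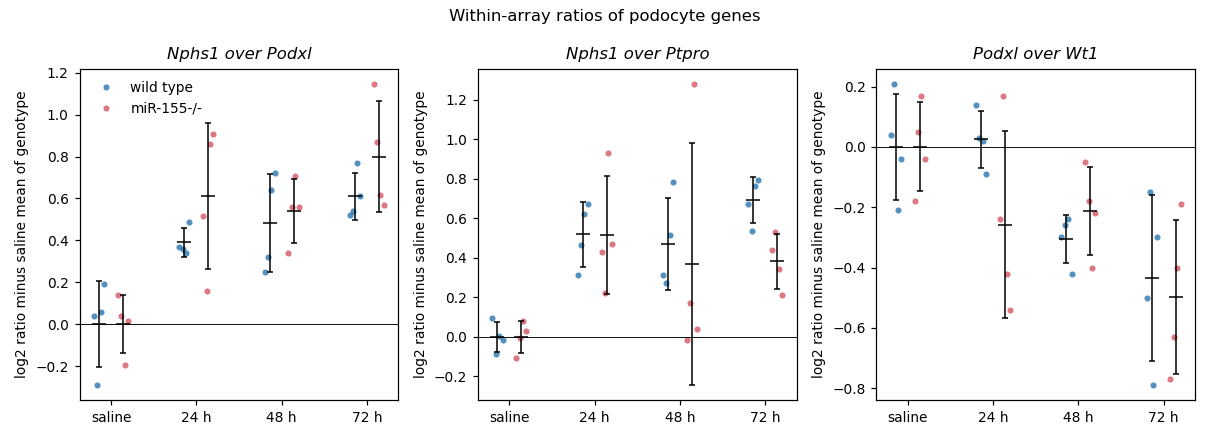
Log2 ratio of Nphs1 to Podxl, Nphs1 to Ptpro and Podxl to Wt1 on each array, minus the saline mean of its genotype (vertical axis), by group (blue wild type, red miR-155-/-), with bars for the group mean ± SD (n = 4). The Nphs1 to Podxl ratio rose by 0.50, 0.51 and 0.71 at 24, 48 and 72 h, with every treated array above the saline mean, and the Podxl to Wt1 ratio stood at -0.47 at 72 h.

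The markers varied together between animals of the same group. Taken as deviations from the group mean over 32 arrays (31 for Cdkn1c), all 15 pairs of markers had a positive Pearson r, from 0.10 to 0.90 with a median of 0.61. Nphs1 and Wt1 were closest (r = 0.90, Spearman rho = 0.85, permutation adjusted p = 3.75e-05 and 5.00e-05 over 15 pairs, from the smallest p that 100000 resamples can give), and r was 0.85 without the 2 arrays with the most extreme Nphs1. Synpo and Wt1 had an r of 0.83 (rho = 0.82) and Podxl and Synpo 0.82 (rho = 0.80). The 10 pairs without Cdkn1c all had an r of at least 0.58. Cdkn1c had an r between 0.10 (with Synpo) and 0.35 (with Wt1) in 4 pairs. Its r with Ptpro was 0.61 (rho = 0.26), which became 0.30 without the 2 most extreme arrays.

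All 6 markers lay below their group means on wild type 24 h replicate 1 (mean deviation -0.51), wild type saline replicate 1 (-0.42), miR-155-/- 48 h replicate 3 (-0.40) and wild type 72 h replicate 2 (-0.24). The largest mean deviation upward was that of miR-155-/- 48 h replicate 1 (0.32), with 0 of 6 markers below their group mean. With slide as a block the median r of the 15 pairs was 0.68 and with scan day as a block 0.73. Without the 2 arrays that stood apart over all genes it was 0.78, under quantile normalization 0.64 and under normexp 0.69.

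Set against other measures of the same arrays, the mean deviation of the 6 markers followed that of the slit diaphragm and podocyte membrane list (r = 0.53, rho = 0.51, permutation adjusted p = 0.0326 and 0.0402 over 8 relations; r = 0.45 without the 2 most extreme arrays). It did not pass the test against endothelial genes (r = 0.44, rho = 0.33, permutation adjusted p = 0.0824 and 0.110), mesangial genes (r = 0.36), proximal tubule genes (r = 0.37), distal genes (r = 0.00), red blood cell genes (r = -0.47, rho = -0.37, permutation adjusted p = 0.0824 and 0.110), the 75th percentile of the array (r = 0.30) or the share of probes above background (r = 0.33). The amount of glomerulus in each piece of tissue was not measured, and its part in the shared variation was not tested.

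**Figure D5:**
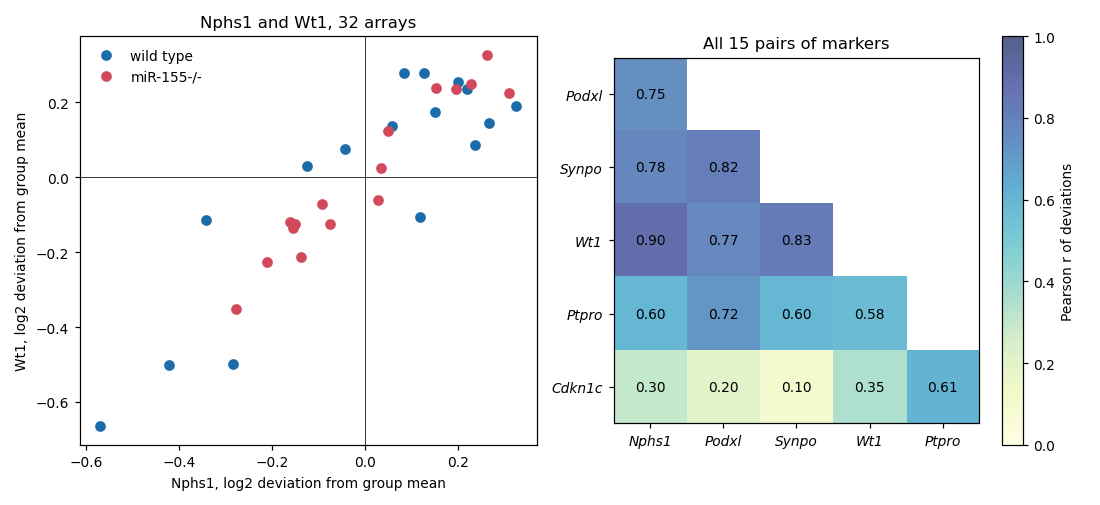
Left, log2 deviation of Nphs1 (horizontal axis) and Wt1 (vertical axis) from their group means, with 1 point for each of 32 arrays (blue wild type, red miR-155-/-); right, Pearson r of such deviations for all 15 pairs of markers. Nphs1 and Wt1 rose and fell together (r = 0.90), and the pairs of Cdkn1c with Nphs1, Podxl, Synpo and Wt1 had the lowest r of the 15, from 0.10 to 0.35.

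Over 13874 named genes, those whose deviations were most like the mean of the 6 markers over 32 arrays were Shisa3 (r = 0.89), Tspan2 (0.86), Ada (0.85), Amph (0.85), Crb2 (0.83), Plod1 (0.81), Raver2 (0.80), Rab3b (0.80), Col8a1 (0.79) and Foxd1 (0.78). The median r over all genes ranked was 0.01. Crb2, a Crumbs family protein of the podocyte slit diaphragm, stood at 0.13, 0.13 and 0.38 against saline at 24, 48 and 72 h and did not pass the test. Among the genes of the podocyte lists, Robo2 had an r of 0.72 (rank 19). Likeness between animals and change after the drug differed among the genes most like the markers: Ada, adenosine deaminase, rose by 1.46 at 72 h (limma adjusted p = 6.95e-08), Raver2 fell by 0.59 (4.11e-05), and Shisa3 stood at -0.26 (0.295).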

How the data were processed

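Per the file headers, Feature Extraction 10.7.3.1 (protocol GE1_107_Sep09) made the deposited processed signal used here, a linear intensity with background subtracted. The authors' deposited value table was that intensity times 1 factor per array and served as an alternative. Signals were taken to log2 minus the array's 75th percentile. Outlier-flagged spots were dropped and spots of a probe averaged. Symbols came through transcript accessions from a RefSeq table (GRCm38.p6), with no coordinate taken from it.

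A feature was kept if some group had all 4 arrays well above background and every group had 3 or more values. limma 3.58.1 in R 4.3.3 gave the tests (8 group means, 24 residual degrees of freedom, 2-sided, Benjamini-Hochberg within each comparison, called under 0.05). The limma fit was tested on simulated data. Ratios were tested by exact enumeration in Python, correlations by 100000 permutations within groups in R. The 6 markers, the gene lists and the comparisons were chosen with earlier results of these data known. Beyond the markers, the rule named, for a list and comparison, at most 4 called genes, those of lowest adjusted p, all Cip/Kip and CD34 family genes and the 10 genes most like the marker mean. Any other gene was chosen after its values were seen. Labels state independent animals; intervals cover their spread. Replicate numbers did not pair samples (33 of 112 same-numbered pairs of arrays correlated above 0.1). Normexp used the median signal and background columns. Results of some genes are not reported here.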

Additional observations from a re-analysis of the deposited data

Results flagged for a closer look

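In 7 of 47 groups of 4 arrays 1 array lay far from the other 3 of its group by Dixon's criterion, which chance meets in about 5% of groups. Of the 7, 5 were of wild type 24 h replicate 1, with Nphs1 at -1.12 (the others from -0.40 to -0.33), Podxl at -0.89, Synpo at -0.71, Wt1 at -0.46 and Cdkn1c at 0.69. Without that array Nphs1 stood 0.46 above saline in wild type at 24 h (limma adjusted p = 0.0393) and Cdkn1c 0.42 (0.0348), both then called. The markers share this array's RNA, so that the 5 values are not separate events. Wt1 was high on miR-155-/- saline replicate 4 (0.79, the others from 0.42 to 0.48). Cdkn1c was low on miR-155-/- 48 h replicate 3 (0.29, the others from 0.94 to 1.03), an array that also stood apart over all genes. Without it Cdkn1c was called in miR-155-/- at 48 h (0.39, limma adjusted p = 0.0462).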

How the results depend on the processing

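Counts of called markers stayed within 1.5 times in 378 of 434 and moved in 56. With 0 or 1 marker called in the main fit, staying within 1.5 times meant an equal count. Between genotypes and in their interaction 0 markers were called in every alternative, so all 56 fell in the comparisons with saline or between 24 and 72 h. Scan day as a block and both pairs of left-out arrays were chosen after seeing the data. The numbers of markers called moved as follows. In wild type at 48 h the count went from 0 to 1 under quantile normalization, the array median, slide as a random block, the replicate block and array weights, and at 72 h from 1 to 2 with array weights. In miR-155-/- it went from 0 to 1 at 24 h without both arrays that stood apart, from 0 to 1 at 48 h with array weights or without those arrays, and from 1 to 2 at 72 h with array weights. Averaged over genotypes at 24 h it went from 1 to 0 under normexp, quantile normalization, the stricter filter (which left Cdkn1c untested), slide and scan day as fixed blocks, and to 2 with the array median or without both arrays on which all markers were low. At 48 h it went to 0 with slide as a fixed block and to 2 without both arrays that stood apart, and at 72 h to 2 with the array median and 3 with array weights. Between 24 and 72 h it went to 2 with slide as a random block, the replicate block, the compared groups alone or without both low arrays, and to 4 with array weights or without both arrays that stood apart. Leaving out 1 array at a time gave 0 to 2 in wild type at 24 h, 0 to 1 at 48 h and 0 to 2 at 72 h, 0 to 1 in miR-155-/- at 48 and 72 h, and, averaged over genotypes, 0 to 2 at 24 h, 1 to 3 at 72 h and 1 to 3 between 24 and 72 h. The replicate block (numbers that did not pair the samples) changed the call of Nphs1 in wild type at 48 h (0.47, limma adjusted p = 0.0329) and between 24 and 72 h (0.30, 0.0314) and no other marker's call. The median r between markers was 0.61, and 0.73 with scan day as a block and 0.78 without both arrays that stood apart. Trpc6 at 48 h went from -0.64 to 0.00 under normexp (limma adjusted p = 0.997), and the cause was not tested. Over all features normexp called 8854, 6655, 6442 and 6144 in the 3 averaged comparisons with saline and between 24 and 72 h, where 13731, 11847, 10632 and 10170 were called with the processed signal. Array weights called 11016 against 5653 features in wild type at 48 h, 12568 against 6017 at 72 h, 3402 against 171 between genotypes at 72 h and 1153 against 50 in their interaction, and called 0 markers in the last 2 comparisons. Of the alternative values of the ratios 889 kept direction and call, 38 lost the call and 3 gained it. Those under the array median could not change, since a ratio within an array does not depend on its scaling. Signals of all 6 markers were well above background.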
